A study of Mus musculus with 8 samples.

Results

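The mitochondrial carrier family Slc25 was followed in the livers of mice given antagomiR-122 or a control antagomiR. Its members were taken by gene symbol: the 45 protein-coding genes named Slc25a with a number, of 43629 entries with values in the deposited table. A further 2 symbols of this form are not reported here. The rule used symbols and no measured value.

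Slc25 proteins sit, with few exceptions, in the inner mitochondrial membrane. They are nuclear-encoded, are made in the cytosol and are imported, and each moves small molecules that the membrane itself does not let through, such as ADP and ATP, phosphate, citrate, malate, amino acids, glutathione, iron and cofactors. In hepatocytes they join mitochondrial oxidation to gluconeogenesis, urea synthesis, lipogenesis and haem synthesis, whose steps are divided between matrix and cytosol.

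All 8 mice were male C57BL/6 animals 7 to 8 weeks old. In the antagomiR-122 group, 4 mice received 5 µg of antagomiR-122 into a tail vein, and in the antagomiR-control group 4 mice received 5 µg of antagomiR-control. An antagomiR is a chemically modified antisense oligonucleotide that inhibits a microRNA, here miR-122, the dominant microRNA of hepatocytes. Every mouse of both groups was injected under the skin with 1 mg/kg CL316243, which activates β3-adrenergic receptors on fat cells, after 48 h, and was killed after another 2 h. Each library is the liver of 1 mouse, no group without CL316243 was analysed here, and the labels name no batch. Mature miR-122 was not analysed here, so its inhibition could not be checked.

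The values are FPKM, fragments scaled to transcript length and library size, as the authors deposited them. Because FPKM are per length, levels can be compared between genes. Relative depth, estimated from the steps between low FPKM values, was 0.891 to 2.38 in antagomiR-122 mice and 0.917 to 1.13 in antagomiR-control mice. The highest value, 2.38, belonged to antagomiR-122 replicate 4, where mitochondrially encoded transcripts held 9.17% of summed FPKM, against 20.4% to 24.1% in the other 7 libraries. That library also listed 15 genes at 0 that were above 5 FPKM in each of the others. Hepatocyte markers (all 7 in the table) summed to 14863 to 19169 FPKM in antagomiR-122 livers and 16124 to 19724 FPKM in antagomiR-control livers. The 4 skeletal muscle markers summed to at most 0.0265 FPKM in antagomiR-122 livers and 0.0290 FPKM in antagomiR-control livers, with Mb at 0 in all 8 libraries. The 3 adipocyte markers summed to at most 0.625 FPKM in antagomiR-122 mice and 0.0722 FPKM in antagomiR-control mice.

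Sequence around the start of 3 members is shown first, chosen after their values were seen. Slc25a47 had the highest level of the family, Slc25a25 the lowest p among those lower after antagomiR-122, and Slc25a30 was the single member that the authors called. None of the 3 passed the adjusted test described below. Each sequence is a RefSeq promoter window on GRCm38.p6, from 250 bases before to 50 bases after an annotated start, read 5′ to 3′ on the gene's strand. The Slc25a47 window is chr12:108850879-108851178 on the plus strand, with TGACCT, the reverse complement of the nuclear receptor core AGGTCA, in capitals. The Slc25a25 window is chr2:32424017-32424316 on the minus strand, with the palindrome TGACGTCA of the cAMP response element in capitals. It is 1 of 3 RefSeq windows of Slc25a25 and was chosen after the motif was seen. The Slc25a30 window is chr14:75786988-75787287 on the minus strand and has no capitals, since it holds neither AGGTCA nor TGACGTCA on either strand.
Slc25a47: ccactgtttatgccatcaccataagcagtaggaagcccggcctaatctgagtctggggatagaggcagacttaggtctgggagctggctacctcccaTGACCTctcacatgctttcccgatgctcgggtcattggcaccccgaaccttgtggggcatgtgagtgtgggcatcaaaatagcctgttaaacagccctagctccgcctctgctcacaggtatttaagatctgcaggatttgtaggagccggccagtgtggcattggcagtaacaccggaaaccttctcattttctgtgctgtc
Slc25a25: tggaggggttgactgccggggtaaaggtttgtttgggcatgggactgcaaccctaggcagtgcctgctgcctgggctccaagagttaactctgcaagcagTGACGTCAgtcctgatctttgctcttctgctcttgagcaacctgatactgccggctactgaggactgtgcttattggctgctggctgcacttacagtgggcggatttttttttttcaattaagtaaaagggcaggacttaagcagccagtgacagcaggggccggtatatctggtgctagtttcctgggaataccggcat
Slc25a30: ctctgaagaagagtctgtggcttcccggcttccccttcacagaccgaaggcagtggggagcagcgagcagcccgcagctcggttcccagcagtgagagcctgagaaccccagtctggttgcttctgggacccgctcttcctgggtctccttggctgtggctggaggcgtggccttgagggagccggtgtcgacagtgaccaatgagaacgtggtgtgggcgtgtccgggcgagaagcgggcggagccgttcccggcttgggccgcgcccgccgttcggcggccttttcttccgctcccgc

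RefSeq gave 43 windows for 34 members on the chromosomes searched, beside 32851 windows over all genes. No choice by gene type or by level in liver was made among the latter. The shares below therefore do not compare the members with other protein-coding genes expressed in liver. Each motif was searched as exact letters on both strands. Windows of the same gene can overlap, so the same bases can count more than once. The same CACGTG, for example, lies in 2 overlapping windows of Slc25a14. The GC box GGGCGG was found in 81.4% of Slc25 windows and 35.7% of all windows. CCAAT was found in 51.2% of Slc25 windows and 37.4% of all windows, and the E-box CACGTG in 16.3% of Slc25 windows and 7.15% of all. TGACGTCA was found in 4.65% of Slc25 windows, which are 2 windows, of Slc25a25 and Slc25a36, and in 1.79% of all windows. Its core TGACG, which overlaps it, was found in 30.2% of Slc25 windows and 20.8% of all. AGGTCA was less frequent in Slc25 windows, at 9.30% against 16.3% of all, as were the TATA box TATAAA, at 4.65% against 13.6% of all, and the FoxO motif GTAAACA, at 0% against 3.65% of all. The NRF1 core GCATGCGC was found in 4.65% of Slc25 windows, which are 2 windows, and 2.71% of all. The 2 windows are those of Slc25a31 and Slc25a54, which both averaged under 1 FPKM in these livers. The Slc25 windows were also richer in G and C, with a median of 59.0% against 52.7% over all windows. These are counts of letters, and no binding was measured.

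Seed matches for miR-122 were sought in each gene's longest 3' UTR of GENCODE M21, as ACACTCC or CACTCCA, with ACACTCCA counted as an 8mer. Of the 37 members tested below, 3 held a match (8.11%), against 1765 of 10484 tested genes with an annotated 3' UTR (16.8%). The median 3' UTR was 1554 bases in these members and 1320 bases in all tested genes. Of all 44 members with an annotated 3' UTR, tested or not, 6 held a match (13.6%). Slc25a27, Slc25a35 and Slc25a41 are among these and averaged under 1 FPKM, so they were not in the fit. The 3 tested members with a match were Slc25a28, a mitoferrin that brings iron into mitochondria, Slc25a51, an NAD carrier in human cells, and Slc25a34, an orphan. Each had an 8mer, printed here with its flanks and only that 8mer in capitals. The 8mers lie at chr19:43664044-43664051, chr4:45397935-45397942 and chr4:141618846-141618853, all on the minus strand of GRCm38. Slc25a34 held 3 matches in all and Slc25a51 held 2, and those not printed in capitals were ACACTCC without the final A. For Slc25a34 a match of this kind, at base 1549 of its 3' UTR, lies in lower case in the printed left flank.
Slc25a28: tggctgctggcACACTCCAgtctcaagagg
Slc25a51: gctgtcccactACACTCCAgccttcccagt
Slc25a34: aacactcctgaACACTCCAataaagtttta

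Carrier levels differed widely. Over the 8 mice, 7 members averaged above 100 FPKM, 15 lay between 10 and 100, 15 between 1 and 10, and 8 were under 1. The 6 highest held 72.3% of the members' summed FPKM. In order they were Slc25a47, the glutamate carrier Slc25a22, the ADP/ATP carrier Slc25a5 (ANT2), the glutathione carrier Slc25a39, the phosphate and copper carrier Slc25a3 and the citrate carrier Slc25a1. Of the 36 pairs of neighbours in the order of the 37 tested members, 32 overlapped between mice. The 4 pairs that did not were Slc25a47 above Slc25a22, Slc25a5 above Slc25a39, Slc25a3 above Slc25a1, and Slc25a44 above Slc25a46. Reads can be shared where sequence is. For each member 1 transcript, that with the longest annotated 3' UTR where there is any, was compared with all other genes' transcripts. By this count 25 of the 45 members share no 50-base word with another gene, and 4 share over 10% (Slc25a5, Slc25a35, Slc25a33 and Slc25a36). Over all annotated transcripts, 14 members have exons that overlap another gene. The strand setting of the libraries is not stated in the sources, so reads of genes that overlap on opposite strands cannot be told apart.

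**Figure D1:**
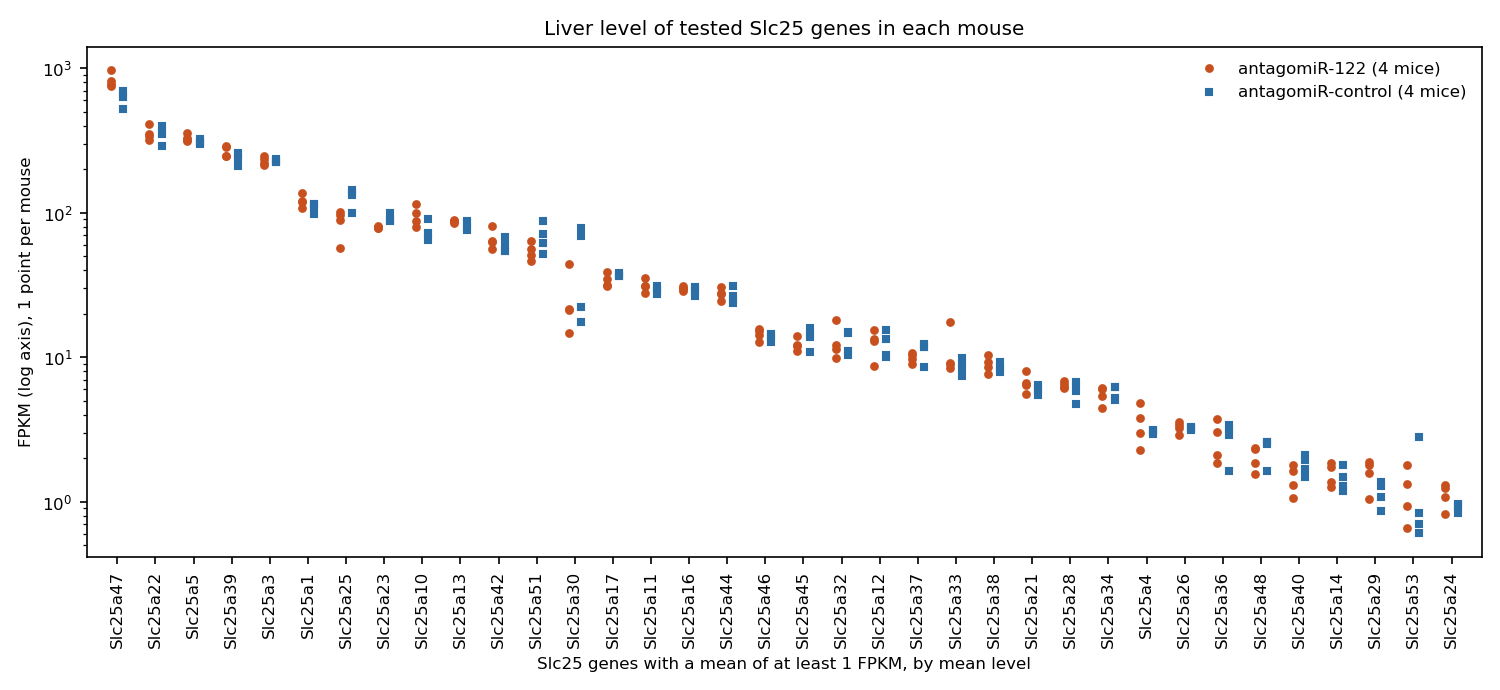
FPKM of tested Slc25 genes in each mouse, on a log axis, with genes ordered by mean level; circles are antagomiR-122 mice and squares antagomiR-control mice. Slc25a47, at 759.5 to 969.9 FPKM in antagomiR-122 mice and 525 to 696 FPKM in antagomiR-control mice, stands above the rest, and for most genes the points of both groups lie over each other.

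Of the 6 pairs of paralogues compared, 3 were at least 5.63 times apart in level in every mouse. Slc25a5 was 66.1 to 145 times its paralogue Slc25a4, the ADP/ATP carrier of heart and muscle, in antagomiR-122 mice and 96.9 to 110.1 times in antagomiR-control mice. Slc25a13 (citrin), the aspartate-glutamate carrier of liver, was 5.63 to 10.2 times Slc25a12 in antagomiR-122 mice and 5.71 to 8.08 times in antagomiR-control mice. Slc25a39 was 138 to 273 times Slc25a40 in antagomiR-122 mice and 99.9 to 174 times in antagomiR-control mice. The germ-line ADP/ATP carrier Slc25a31 averaged 0.0611 FPKM in antagomiR-122 livers and 0.00914 FPKM in antagomiR-control livers. Slc25a41, of the ATP-Mg/phosphate branch, was listed at 0 in all 8 livers.

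No Slc25 gene passed the test between the groups. The comparison took the 11131 genes that averaged 1 FPKM or more, 37 members among them, and was made with limma on log2(FPKM + 1), with Benjamini-Hochberg adjustment over all of them and a threshold of 0.05. The count was 0 of 37 members and 0 of 11131 genes (0%), and the smallest adjusted p from limma was 0.452 among the members and 0.251 over all genes. Without the adjustment, 4 members had a limma p under 0.05, Slc25a47 and Slc25a10 higher and Slc25a25 and Slc25a23 lower. That is 10.8% of members, beside 7.44% of all genes tested (828), and by direction 2 members higher beside 3.76% of all genes and 2 lower beside 3.67%. The groups did not overlap for 2 members, or 5.41%, beside 4.52% of all genes (503). Slc25a47 was the 1 higher, beside 2.38% of all genes, and Slc25a23 the 1 lower, beside 2.14%. These shares are near the background, and the genes below are described by their values. In whole liver, fewer cells of a type and less RNA per cell cannot be told apart.

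Differences within the family were mostly small. Fitted log2 differences, antagomiR-122 over antagomiR-control, ran from -0.69 to 0.40, and 29 of 37 were under 0.2 in size. The median was 0.05, beside 0.010 over all genes tested, and 24 members were higher and 13 lower (23 and 14 under quantile normalization and without antagomiR-122 replicate 4), or 64.9% higher beside 53.0% of all genes. The median was 0.02 without antagomiR-control replicate 4 and 0.08 without antagomiR-control replicate 3. Without antagomiR-122 replicate 1, 21 members were higher and 15 lower, and without antagomiR-control replicate 1, or 4, the counts were 22 and 15. The median coefficient of variation between mice was 13.9% in the antagomiR-122 group, beside 13.5% over all genes tested, and 11.8% in the antagomiR-control group, beside 11.1%. The members held 0.421%, 0.409%, 0.444% and 0.524% of summed FPKM in antagomiR-122 replicates 1 to 4, against 0.393%, 0.410%, 0.427% and 0.407% in antagomiR-control replicates 1 to 4. The highest share, 0.524%, was that of the library with few mitochondrially encoded transcripts. Without those transcripts and the genes listed at 0 in that library alone, the shares averaged 0.560% ± 0.0189 in antagomiR-122 mice and 0.533% ± 0.0271 in antagomiR-control mice (SD, n = 4 each).

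**Figure D2:**
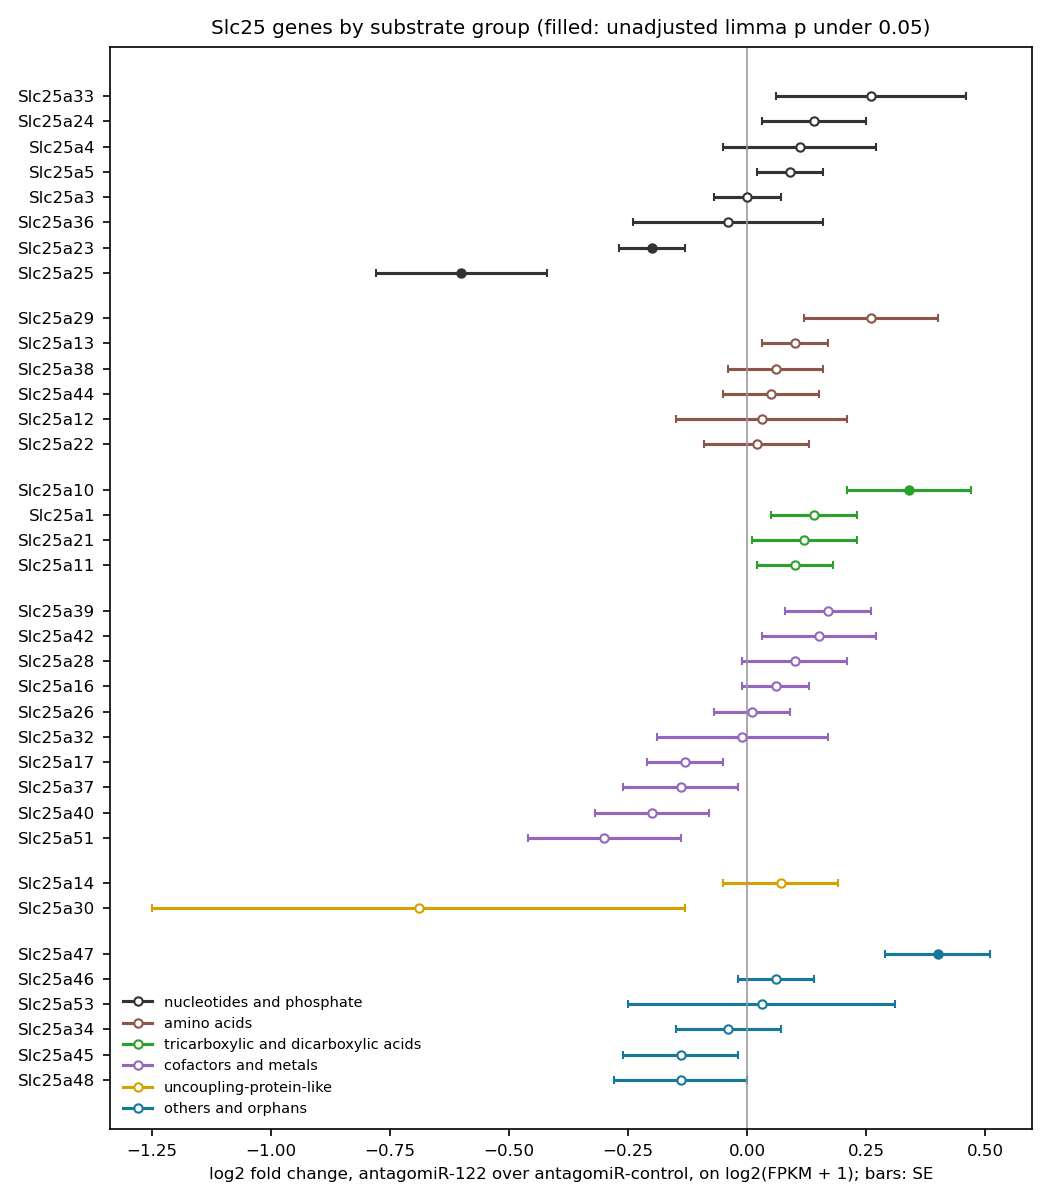
Log2 fold change of tested Slc25 genes, antagomiR-122 over antagomiR-control on log2(FPKM + 1), with its standard error, by substrate group; filled points have an unadjusted limma p under 0.05. Most points lie within 0.2 of 0, and Slc25a47 and Slc25a10 on the right and Slc25a25 and Slc25a23 on the left are the filled ones.

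Slc25a47, a carrier found almost only in hepatocytes and without a settled substrate, had the highest FPKM of the family in every mouse. It lies at chr12:108851129-108856814 on the plus strand of GRCm38. Its level was 759.5, 813, 969.9 and 773 FPKM in antagomiR-122 replicates 1 to 4, against 525, 633, 664 and 696 FPKM in antagomiR-control replicates 1 to 4. Every antagomiR-122 mouse was above every antagomiR-control mouse. The means were 829 ± 96.6 FPKM in antagomiR-122 mice and 629 ± 74.5 FPKM in antagomiR-control mice (SD, n = 4 each), a ratio of 1.32. The log2 fold change was 0.40 ± 0.11 (SE), with an unadjusted limma p of 0.00556 and an adjusted p of 0.452. The difference was 0.31 to 0.45 when each mouse was left out in turn, and 0.43 without antagomiR-122 replicate 4. Slc25a47 alone made up 28.9% of the members' summed FPKM in the antagomiR-122 group and 23.7% in the antagomiR-control group.

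Among carriers of nucleotides and phosphate, 10 members of which 8 were tested, 5 were higher and 3 lower (4 and 4 under quantile normalization), and the median log2 difference was 0.04. Without antagomiR-122 replicate 1, 3 were higher and 4 lower and the median was -0.03. With antagomiR-control replicate 3 left out, the counts were 4 and 4. The 2 lowest in the fit of all mice were both ATP-Mg/phosphate carriers, whose calcium-binding domain lets cytosolic calcium set the adenine nucleotide content of the matrix. Slc25a25 (SCaMC-2, chr2:32414487-32451445, minus strand) was at 57.1, 88.9, 96.2 and 100.35 FPKM in antagomiR-122 replicates 1 to 4, against 136, 133, 144 and 99.97 FPKM in antagomiR-control replicates 1 to 4. AntagomiR-control replicate 4 lay just under antagomiR-122 replicate 4, and the other 3 antagomiR-control mice were above every antagomiR-122 mouse. The means were 85.7 ± 19.6 FPKM in antagomiR-122 livers and 128 ± 19.4 FPKM in antagomiR-control livers (SD, n = 4 each), and the log2 fold change was -0.60 ± 0.18 (SE), with an unadjusted limma p of 0.00865 and an adjusted p of 0.486. Without antagomiR-122 replicate 1 it was -0.41, and without antagomiR-122 replicate 4 it was -0.68 and the groups did not overlap. Nor did the groups overlap without antagomiR-control replicate 4, or under median-ratio scaling of all mice.

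Slc25a23 (SCaMC-3, chr17:57043711-57059863, minus strand) was at 77.9, 80.0, 78.7 and 80.9 FPKM in antagomiR-122 replicates 1 to 4, against 99.2, 89.0, 89.4 and 88.1 FPKM in antagomiR-control replicates 1 to 4. All antagomiR-122 mice were below all antagomiR-control mice. The antagomiR-122 values lay within a narrow range, while antagomiR-control replicate 1 lay apart above the others of its group. The means were 79.4 ± 1.34 FPKM in antagomiR-122 mice and 91.4 ± 5.22 FPKM in antagomiR-control mice (SD, n = 4 each), and the log2 fold change was -0.20 ± 0.07 (SE), with an unadjusted limma p of 0.0136 and an adjusted p of 0.545. Without antagomiR-control replicate 1 the log2 fold change of Slc25a23 was -0.16, with an unadjusted limma p of 0.0492. The ratio of Slc25a25 to Slc25a23 was 0.734, 1.11, 1.22 and 1.24 in antagomiR-122 mice and 1.37, 1.49, 1.61 and 1.13 in antagomiR-control mice. The third tested gene of this branch, Slc25a24, was low, at 1.12 ± 0.219 FPKM in antagomiR-122 livers and 0.914 ± 0.0555 FPKM in antagomiR-control livers (SD, n = 4 each), with a log2 fold change of 0.14 ± 0.11 (SE).

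The ADP/ATP and phosphate carriers, which feed and empty ATP synthase, showed small differences. Slc25a5 (chrX:36795651-36798807, plus strand) had 316, 328, 356 and 318 FPKM in antagomiR-122 replicates 1 to 4, against 301, 308, 322 and 309.9 FPKM in antagomiR-control replicates 1 to 4. These ranges overlap, and the log2 fold change was 0.09 ± 0.07 (SE), with an adjusted limma p of 0.818. It was 0.05 under quantile normalization and without antagomiR-122 replicate 3. Of the 50-base words in the Slc25a5 transcript compared, 46.6% also occur in transcripts of 9 other genes, most in the processed pseudogene Gm5560, so its FPKM is uncertain. Slc25a3 (chr10:91116574-91124059, minus strand) had 214, 247, 235 and 222 FPKM in antagomiR-122 replicates 1 to 4, against 227, 225, 226 and 237 FPKM in antagomiR-control replicates 1 to 4. Its means, 229.7 ± 14.7 FPKM in antagomiR-122 mice and 229 ± 5.56 FPKM in antagomiR-control mice (SD, n = 4 each), were nearly equal and its log2 fold change was 0.00 ± 0.07 (SE), with a sign that turned between settings.

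The pyrimidine nucleotide carrier Slc25a33 (chr4:149744036-149774277, minus strand) was at 8.42, 17.4, 9.07 and 8.93 FPKM in antagomiR-122 replicates 1 to 4, against 8.36, 7.41, 9.81 and 8.98 FPKM in antagomiR-control replicates 1 to 4. Apart from replicate 2, the antagomiR-122 mice lay within the antagomiR-control range. The log2 fold change was 0.26 ± 0.20 (SE), with an adjusted p of 0.806 by limma, and it was 0.03 without antagomiR-122 replicate 2. Gm13068, an antisense gene inside Slc25a33, was also highest in that mouse, at 13.01 FPKM, against 5.10 to 6.36 FPKM in the other 3 antagomiR-122 mice and 5.37 to 7.59 FPKM in antagomiR-control mice. Of the 50-base words in the Slc25a33 transcript compared, 12.6% also occur in transcripts of Gm13068 and of no other gene. The part of Gm13068 in the Slc25a33 value was not tested. The related carrier Slc25a36 was at 2.67 ± 0.866 FPKM in antagomiR-122 livers and 2.77 ± 0.782 FPKM in antagomiR-control livers (SD, n = 4 each).

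**Figure D3:**
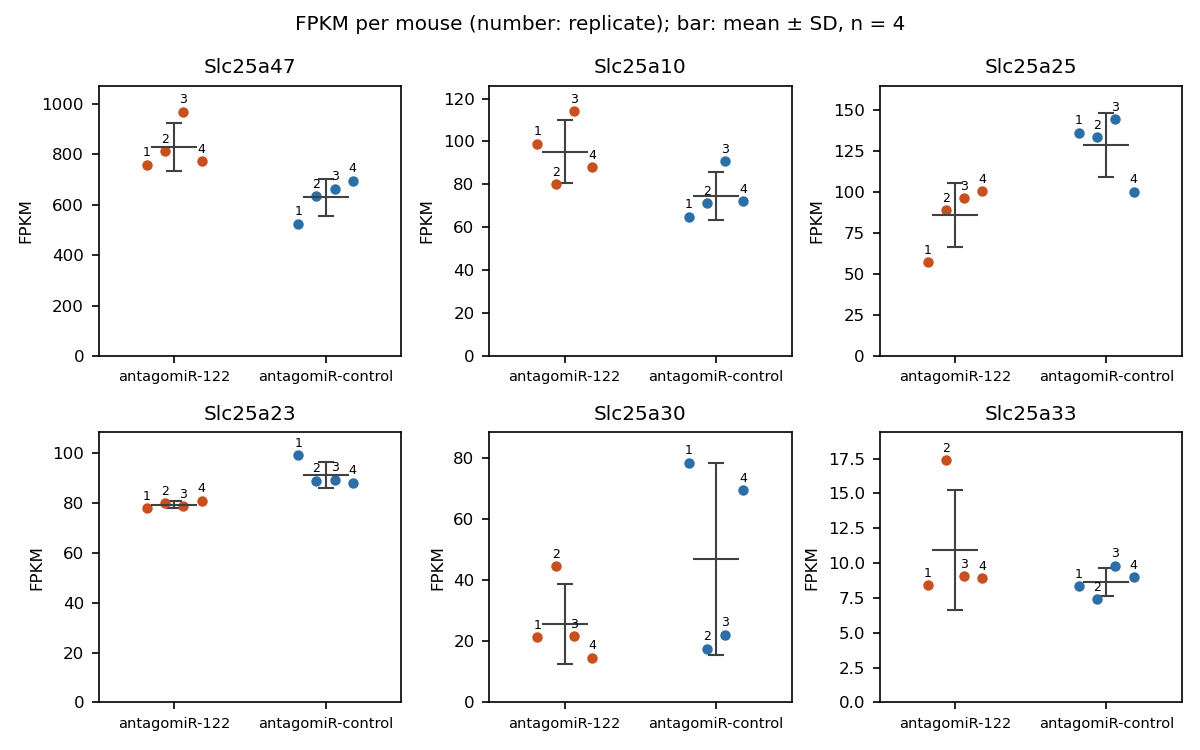
FPKM of 6 Slc25 genes in each mouse, with antagomiR-122 left of antagomiR-control, the replicate number above each point, and the mean and SD of 4 mice as bars. Slc25a47 and Slc25a23 show groups that do not overlap, Slc25a30 spans 14.6 to 44.5 FPKM in antagomiR-122 mice and 17.6 to 78.4 FPKM in antagomiR-control mice, and Slc25a33 has 1 high antagomiR-122 mouse at 17.4 FPKM.

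All 4 carriers of tricarboxylic and dicarboxylic acids were higher, by log2 differences of 0.10 to 0.34 with 0.13 as the median, and none passed the adjusted test. All 4 were also higher under each other setting run, including each in which a mouse was left out. Slc25a10 (chr11:120491840-120499187, plus strand), which exchanges malate or succinate for phosphate, had 99.0, 80.0, 114 and 87.9 FPKM in antagomiR-122 replicates 1 to 4, against 64.9, 71.1, 90.8 and 72.2 FPKM in antagomiR-control replicates 1 to 4. AntagomiR-control replicate 3 lay above 2 of the antagomiR-122 mice, and the other 3 antagomiR-control mice lay below all of them. The means were 95.2 ± 14.7 FPKM in antagomiR-122 mice and 74.7 ± 11.2 FPKM in antagomiR-control mice (SD, n = 4 each), a ratio of 1.27, and the log2 fold change was 0.34 ± 0.13 (SE), with an unadjusted limma p of 0.0251 and an adjusted p of 0.604. Leaving out 1 mouse gave 0.25 to 0.44 with unadjusted limma p up to 0.0739, and 0.38 without antagomiR-122 replicate 4. The antisense gene Gm11788, which overlaps its exons, averaged 0.841 FPKM in antagomiR-122 mice and 0.492 FPKM in antagomiR-control mice. Of the 50-base words in the Slc25a10 transcript compared, 9.07% also occur in transcripts of Gm11788.

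Slc25a1 (chr16:17925211-17928219, minus strand), which exports citrate for fatty acid and sterol synthesis, had 118, 121, 107 and 136 FPKM in antagomiR-122 replicates 1 to 4, against 97.3, 112, 114 and 114 FPKM in antagomiR-control replicates 1 to 4. The groups overlapped through antagomiR-122 replicate 3, and the log2 fold change was 0.14 ± 0.09 (SE), with an adjusted p of 0.795 by limma. It was 0.08 both without antagomiR-122 replicate 4 and without antagomiR-control replicate 1. The oxoglutarate carrier Slc25a11, an arm of the malate-aspartate shuttle, was at 31.4 ± 3.06 FPKM in antagomiR-122 livers and 29.2 ± 1.49 FPKM in antagomiR-control livers. Its exons overlap the antisense gene Rnf167, which averaged 10.6 FPKM in antagomiR-122 livers and 7.27 FPKM in antagomiR-control livers, and whose part in the Slc25a11 level was not tested. The Slc25a11 transcript compared shares 0% of its 50-base words with another gene. The oxodicarboxylate carrier Slc25a21 was at 6.65 ± 1.04 FPKM in antagomiR-122 mice and 6.02 ± 0.391 FPKM in antagomiR-control mice (SD, n = 4 each for both genes).

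The 6 tested amino acid carriers, of 8, were all higher as well in this fit, with Slc25a22 lower under quantile normalization. The median log2 difference was 0.05 and the range 0.02 to 0.26, and none had an unadjusted limma p under 0.05. Leaving out 1 mouse left 4 to 6 of the 6 higher. Slc25a22 (chr7:141429739-141437892, minus strand) had 337, 317, 352 and 411 FPKM in antagomiR-122 replicates 1 to 4, against 291, 361, 398 and 348 FPKM in antagomiR-control replicates 1 to 4. The groups were interleaved, with means of 354 ± 40.5 FPKM in antagomiR-122 livers and 349.5 ± 44.0 FPKM in antagomiR-control livers (SD, n = 4 each), and the sign of the log2 fold change, 0.02 ± 0.11 (SE), turned between settings. Slc25a13, which supplies aspartate for the urea cycle and the malate-aspartate shuttle, averaged 87.2 ± 2.18 FPKM in antagomiR-122 mice and 81.3 ± 5.70 FPKM in antagomiR-control mice. Its relative Slc25a12 averaged 12.6 ± 2.81 FPKM in antagomiR-122 livers and 12.3 ± 2.51 FPKM in antagomiR-control livers (SD, n = 4 each). Slc25a44, which takes up branched-chain amino acids in mouse brown fat, averaged 27.5 ± 2.44 FPKM in antagomiR-122 mice and 26.6 ± 3.34 FPKM in antagomiR-control mice. Slc25a38, a glycine carrier in human and yeast haem synthesis, averaged 8.98 ± 1.14 FPKM in antagomiR-122 livers and 8.55 ± 0.596 FPKM in antagomiR-control livers. Slc25a29, a carrier of basic amino acids in human, averaged 1.58 ± 0.381 FPKM in antagomiR-122 mice and 1.14 ± 0.224 FPKM in antagomiR-control mice (SD, n = 4 each for the last 3 genes). Its log2 fold change was 0.26 ± 0.14 (SE), with an adjusted p of 0.726 by limma.

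Carriers of cofactors and metals, all 11 tested, were divided, with 5 higher and 6 lower (6 and 5 under quantile normalization), and log2 differences of -0.30 to 0.17 around a median of -0.01. Leaving out 1 mouse left 5 to 7 of the 11 higher. Slc25a39 (chr11:102402985-102407946, minus strand), which brings glutathione into mitochondria, had 247, 291, 284 and 247 FPKM in antagomiR-122 replicates 1 to 4, against 209, 249, 237 and 259 FPKM in antagomiR-control replicates 1 to 4. The groups overlapped, and the log2 fold change was 0.17 ± 0.09 (SE), with an adjusted p of 0.742 by limma. It was 0.10 without antagomiR-control replicate 1. Its paralogue Slc25a40 averaged 1.45 ± 0.327 FPKM in antagomiR-122 livers and 1.80 ± 0.270 FPKM in antagomiR-control livers (SD, n = 4 each). The log2 fold change of Slc25a40 was -0.20 ± 0.12 (SE), with an adjusted p of 0.769 by limma.

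The mitoferrins also leaned in opposite directions within their spread. Slc25a37, the mitoferrin of red cell precursors, averaged 9.96 ± 0.762 FPKM in antagomiR-122 mice and 11.1 ± 1.73 FPKM in antagomiR-control mice. Slc25a28, the mitoferrin of most other tissues, averaged 6.40 ± 0.313 FPKM in antagomiR-122 livers and 5.94 ± 0.902 FPKM in antagomiR-control livers (SD, n = 4 each). The ratio of Slc25a37 to Slc25a28 was 1.69, 1.58, 1.45 and 1.51 in antagomiR-122 mice and 1.84, 1.83, 2.01 and 1.82 in antagomiR-control mice, so that the ratios did not overlap. It is 1 of 6 paralogue ratios computed, the other 5 overlapped, and it was picked out after its values were seen. The 6 erythroid markers summed to 195 to 349.8 FPKM in antagomiR-122 livers and 167 to 249.6 FPKM in antagomiR-control livers, and their part in the Slc25a37 level was not tested.

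Slc25a51 had the lowest log2 fold change of the cofactor carriers, -0.30 ± 0.16 (SE), with an adjusted p of 0.726 by limma, at 54.3 ± 7.56 FPKM in antagomiR-122 mice and 68.1 ± 15.6 FPKM in antagomiR-control mice (SD, n = 4 each). Of the other genes with a miR-122 8mer, Slc25a28 had a log2 fold change of 0.10 ± 0.11 (SE) and Slc25a34 of -0.04 ± 0.11 (SE). These 3 tested genes with a site lay on both sides of 0, and none passed the test, which no gene passed. The coenzyme A carrier Slc25a42 (a role shown in human) averaged 65.9 ± 10.7 FPKM in antagomiR-122 livers and 58.9 ± 6.65 FPKM in antagomiR-control livers. Slc25a17, a carrier of the peroxisomal membrane, averaged 34.1 ± 3.63 FPKM in antagomiR-122 mice and 37.2 ± 0.976 FPKM in antagomiR-control mice (SD, n = 4 each). The folate or FAD carrier Slc25a32 had a log2 fold change of -0.01, the S-adenosylmethionine carrier Slc25a26 one of 0.01, and Slc25a16 one of 0.06. Exons of Slc25a26 overlap the antisense gene Lrig1, which averaged 5.59 FPKM in antagomiR-122 livers and 7.10 FPKM in antagomiR-control livers. The part of Lrig1 in the Slc25a26 value was not tested.

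Slc25a30, an uncoupling-protein-like carrier also called KMCP1, varied most between mice among members above 10 FPKM. It lies at chr14:75761999-75787037 on the minus strand and had 21.3, 44.5, 21.7 and 14.6 FPKM in antagomiR-122 replicates 1 to 4, against 78.4, 17.6, 22.1 and 69.3 FPKM in antagomiR-control replicates 1 to 4. Of the antagomiR-control mice, 2 were above every antagomiR-122 mouse and the other 2 lay within the antagomiR-122 range. The coefficient of variation was 51.3% in antagomiR-122 mice and 67.1% in antagomiR-control mice. The log2 fold change was -0.69 ± 0.56 (SE), with an unadjusted limma p of 0.258 and an adjusted p of 0.825. Leaving out antagomiR-control replicate 1 gave -0.35, leaving out replicate 4 of that group gave -0.41, and leaving out its replicate 2 gave -1.05. Without antagomiR-122 replicate 4 it was -0.47.

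In the authors' deposited table, Slc25a30 was the 1 member of 38 tested that was called significant, beside 1.42% of the 13259 genes tested there. The authors' deposited table gives it a log2 fold change of -0.88, a p-value of 5e-05 and a q-value of 0.00526 by Cuffdiff. A p-value under 0.05 in the authors' deposited table was held by 5 members, Slc25a30, Slc25a10, Slc25a25, Slc25a33 and Slc25a47, beside 6.92% of all genes tested there. For Slc25a33 the authors' deposited table gives a p-value of 0.0193 and a q-value of 0.438.

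The second tested uncoupling-protein-like member, Slc25a14, averaged 1.56 ± 0.286 FPKM in antagomiR-122 livers and 1.43 ± 0.260 FPKM in antagomiR-control livers (SD, n = 4 each). Among the 9 remaining members, a group of others and orphans with Slc25a47 included, 6 were tested, 3 higher and 3 lower, around a median log2 difference of -0.01. Leaving out 1 mouse left 2 to 4 of them higher. Slc25a46, a protein of the outer mitochondrial membrane that shapes mitochondria, averaged 14.4 ± 1.26 FPKM in antagomiR-122 mice and 13.8 ± 0.748 FPKM in antagomiR-control mice. Slc25a45 averaged 12.3 ± 1.27 FPKM in antagomiR-122 livers and 13.8 ± 2.09 FPKM in antagomiR-control livers (SD, n = 4 each). Slc25a48 and Slc25a53 had log2 fold changes of -0.14 and 0.03.

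**Figure D4:**
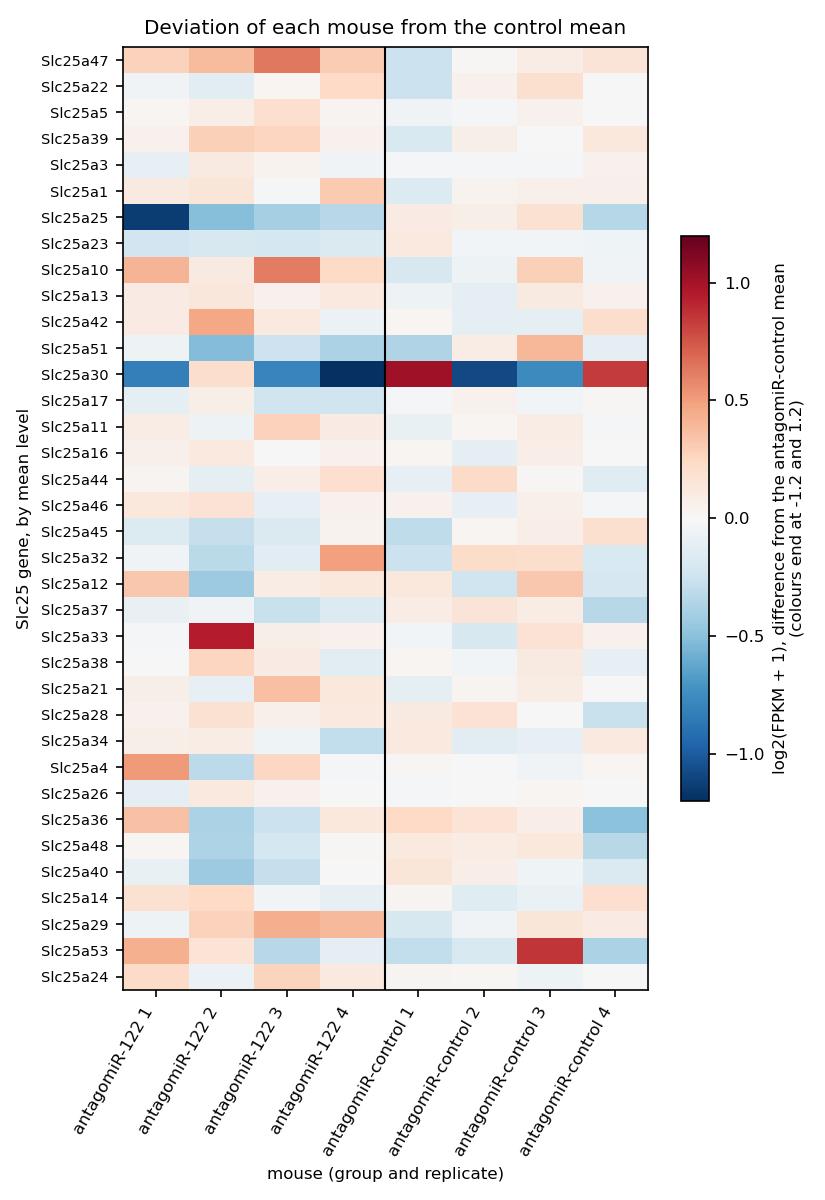
Difference of each mouse from the antagomiR-control mean on log2(FPKM + 1), for tested Slc25 genes, with antagomiR-122 mice left of the line and antagomiR-control mice right of it. Slc25a30 deviates by more than 0.5 in all 4 antagomiR-control mice, and in antagomiR-122 mice 3, 3, 3 and 1 genes deviate by more than 0.5.

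The 8 members with a mean under 1 FPKM were not in the fit. Of these, 7 were compared by an exact two-sided permutation test on FPKM, in which 4 mice against 4 give at smallest p = 0.0286, and 0 reached it. The smallest were 0.0571 for the glutamate carrier Slc25a18, at 0.0266 FPKM in antagomiR-122 mice and 0.0898 FPKM in antagomiR-control mice, and 0.0571 for Slc25a31. Exons of Slc25a18 overlap the antisense gene Atp6v1e1, at a mean of 59.5 FPKM in antagomiR-122 mice and 57.8 FPKM in antagomiR-control mice. The part of Atp6v1e1 in the Slc25a18 value was not tested. For Slc25a35, Slc25a27, Slc25a2, Slc25a43 and Slc25a54 the exact permutation p was 0.314 to 1.00.

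Genes that work beside the carriers were compared in the same fit, and none passed the adjusted test. Of the carrier family outside the Slc25a symbols, 3 of 5 were tested, with 1 higher and 2 lower. Ucp2 was at 61.6 ± 12.2 FPKM in antagomiR-122 livers and 54.7 ± 5.28 FPKM in antagomiR-control livers (SD, n = 4 each), while Ucp1, the uncoupling protein of brown fat, was at or near 0. Of 18 tested genes of other mitochondrial membrane transport, 10 were higher and 8 lower (9 and 9 under quantile normalization), none with an unadjusted limma p under 0.05, and the pyruvate carrier subunit Mpc1 had the smallest, with an adjusted p of 0.785 by limma.

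Of the 16 genes that import carriers through TOM, the small TIM chaperones and TIM22, 14 were higher and 2 lower (12 and 4 without antagomiR-122 replicate 3), and their median log2 difference was 0.13. Over all genes tested, 53.0% were higher. The chaperone Timm9 alone had an unadjusted limma p under 0.05, or 1 of 16 beside 7.44% of all genes, at 30.9 ± 3.24 FPKM in antagomiR-122 mice and 25.6 ± 2.23 FPKM in antagomiR-control mice (SD, n = 4 each), with an adjusted p of 0.599. Of 24 tested enzymes that use or make carrier substrates, 20 were higher and 4 lower (17 and 7 without antagomiR-122 replicate 2). Cpt1a, which commits fatty acids to mitochondrial oxidation, was at 145 ± 5.80 FPKM in antagomiR-122 livers and 117 ± 19.8 FPKM in antagomiR-control livers (SD, n = 4 each). Its log2 fold change was 0.32 ± 0.11 (SE), with an adjusted p of 0.568 by limma. Of 8 regulators of respiratory genes, 6 were higher and 2 lower, and their median log2 difference was 0.12. Without antagomiR-122 replicate 4, 5 were higher and 3 lower and the median was 0.05. Esrra, a nuclear receptor that drives genes of mitochondrial respiration, was at 11.4, 8.60, 11.6 and 9.20 FPKM in antagomiR-122 replicates 1 to 4, against 8.71, 7.02, 6.93 and 6.43 FPKM in antagomiR-control replicates 1 to 4. The highest antagomiR-control value lay just above the lowest antagomiR-122 value, and the log2 fold change was 0.44 ± 0.12 (SE), with an adjusted p of 0.452 by limma.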

How the data were processed

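The submitters' processing notes name Cufflinks 2.2.1 with Cuffdiff, TopHat2 2.0.13, cutadapt 1.7.1, bcl2fastq 2.15.0.4 and the GRCm38 build. An annotation release is not given in the sources used here, nor is a strand setting. The authors deposited FPKM for every mouse and each group. Their deposited table also holds a log2 fold change, a test statistic (a score with no fixed range), a p-value and a q-value per gene. All columns of single mice were matched, leaving 0 unmatched.

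Since FPKM are no counts, limma (3.58.1, R 4.3.3; trend, robust and two-sided, with group as the only term) was run on log2(FPKM + 1) of genes averaging 1 FPKM or more. This scale understates changes of low genes. Low members were compared by an exact permutation test (scipy 1.17.1). GENCODE M21 gave 3' UTRs and RefSeq the promoters. Depth was estimated from FPKM values under 0.3. Low FPKM rest on few fragments, and some zeros may be failed estimates.

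The members and gene lists were chosen with earlier results of these data known. Values of all 8 mice are printed for members with an unadjusted limma p under 0.05, groups that do not overlap, an authors' p-value under 0.05, or the 6 highest means. Other members appear by substrate group, and of other lists those with p under 0.05 or the smallest p. Alternatives were another pseudocount, no filter or a stricter one, median-ratio scaling, quantile normalization, a fit without robust, a replicate block, and leaving out each mouse. The median-ratio factors were 0.996 to 1.01, so that scaling left the values almost unchanged. It still parted the groups of Slc25a25, which otherwise overlapped narrowly. Some genes are not reported here.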

Additional observations from a re-analysis of the deposited data

Results flagged for a closer look

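In a group of 4 mice, a value was singled out when its gap to the nearest other, divided by the group's range, was above Dixon's critical value at the 95% level. Of 74 groups of tested Slc25 genes, 6 met this, and chance gives about 1 in 20. In the antagomiR-122 group, Slc25a33 was at 17.4 FPKM in replicate 2, against 8.42 to 9.07 FPKM in the other 3. The other 5 were antagomiR-control mice. Slc25a1 was at 97.3 FPKM in replicate 1, against 112 to 114 FPKM in the other 3. Slc25a23 was at 99.2 FPKM in replicate 1, against 88.1 to 89.4 FPKM. Slc25a37 was at 8.57 FPKM in replicate 4, against 11.8 to 12.4 FPKM. Slc25a48 was at 1.62 FPKM in replicate 4, against 2.51 to 2.59 FPKM. Slc25a53 was at 2.78 FPKM in replicate 3, against 0.602 to 0.835 FPKM.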

How the results depend on the processing

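The number of Slc25 genes and of all genes past the adjusted limma threshold was 0 as reported and in each alternative run. Slc25a47, Slc25a10, Slc25a25, Slc25a23, Slc25a30, Slc25a33, Slc25a39, Slc25a5 and Slc25a1 kept their direction in all of them. Under quantile normalization the log2 fold change of Slc25a22 was -0.05 and of Slc25a3 -0.04, against 0.02 and 0.00 as reported. Leaving out 1 mouse gave -0.06 to 0.09 for Slc25a22 and -0.03 to 0.04 for Slc25a3, so neither has a settled sign, and the cause was not tested. The number of Slc25 genes whose groups did not overlap was 2 to 5 when 1 mouse was left out, since fewer mice overlap less easily, beside 6.34% to 9.29% of all genes. It was 3 under median-ratio scaling, where Slc25a25 joined, beside 4.61% of all genes. It was 5 without antagomiR-122 replicate 2, beside 9.14% of all genes. Among the antagomiR-control mice, it was 5 with replicate 4 left out, beside 9.29%, and 4 with replicate 3 left out, beside 7.60%. The number with an unadjusted limma p under 0.05 was 3 to 5 when 1 mouse was left out, beside 5.43% to 8.77% of all genes. It was 6 of 44 without the filter on low FPKM, where Slc25a18 and Slc25a31 joined, beside 5.77% of all genes. The share of summed FPKM moved to 0.560% in antagomiR-122 mice and 0.533% in antagomiR-control mice without mitochondrially encoded genes and genes listed at 0 in 1 library alone.

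The labels say nothing of pairing, so the numbers were not taken as pairs. Deviations of same-numbered mice had correlations of 0.128, -0.238, -0.061 and -0.184, against -0.206 to 0.335 for mice with different numbers. So few values cannot decide whether the mice were paired. With a replicate block, 0 genes passed and 660 of all genes and 3 Slc25 genes had an unadjusted limma p under 0.05. Slc25a23 was then at an unadjusted limma p of 0.0555. Depth limits the 8 members under 1 FPKM most.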

Other observations

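Markers of other liver cell types were summed in each mouse, and their part in the Slc25 values was not tested. The 3 endothelial markers summed to 24.6 to 32.9 FPKM in antagomiR-122 livers and 29.3 to 35.0 FPKM in antagomiR-control livers. The 3 Kupffer cell markers in the table summed to 94.3 to 120.2 FPKM in antagomiR-122 livers and 92.6 to 124 FPKM in antagomiR-control livers. The 3 stellate cell markers summed to 5.06 to 19.9 FPKM in antagomiR-122 livers and 8.05 to 18.1 FPKM in antagomiR-control livers. In the fit, 1 of the 3 was higher and 2 lower. Des was at a log2 fold change of 0.07 ± 0.12 (SE) and Col1a1 at -0.38 ± 0.76 (SE). Lrat, which stores retinol as esters, had 3.57 ± 0.377 FPKM in antagomiR-122 livers and 4.94 ± 0.733 FPKM in antagomiR-control livers (SD, n = 4 each), and its log2 fold change was -0.37 ± 0.11 (SE), with an adjusted p of 0.486 by limma. Of the 7 hepatocyte markers, 1 was higher and 6 lower, with a median log2 difference of -0.07, and without antagomiR-122 replicate 1 the counts were 6 and 1. The 1 higher in the fit of all mice, Cyp2e1, a cytochrome P450 of the pericentral lobule, had 3191 ± 345 FPKM in antagomiR-122 livers and 2603 ± 229 FPKM in antagomiR-control livers (SD, n = 4 each), and its log2 fold change was 0.29 ± 0.10 (SE), with an adjusted p of 0.561 by limma. The 2 cholangiocyte markers summed to 0.613 to 1.83 FPKM in antagomiR-122 livers and 1.02 to 1.29 FPKM in antagomiR-control livers, and the 3 leukocyte markers to 4.88 to 8.93 FPKM in antagomiR-122 livers and 5.04 to 8.50 FPKM in antagomiR-control livers.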
